A study of Homo sapiens with 8 samples.

Results

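The genes described here encode 10 adhesion molecules through which cells hold, guide or signal to leukocytes and to each other: the 5 intercellular adhesion molecules ICAM1, ICAM2, ICAM3, ICAM4 and ICAM5, together with VCAM1, SELE, ALCAM, MCAM and F11R. They were taken by gene symbol from a table of 60710 genes, and each symbol matched 1 gene. A375, an established human metastatic melanoma cell line, was treated with 50 ng/mL human recombinant TNF for 24 hours (TNF) or left untreated for the same time (NT), in DMEM with serum. Independent experiments, 4 in number, gave 4 TNF and 4 NT libraries of polyadenylated RNA, so all values come from 1 line, in culture, at 1 dose and 1 time. Of the 10 genes, 7 had enough counts to be tested, among 16186 tested genes. ICAM2, VCAM1 and SELE were below the filter on low counts, and ICAM4 passed it only through the TNF libraries.

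TNF is an inflammatory cytokine whose receptors activate the transcription factor NF-kB, and in vascular endothelium it is known for switching on E-selectin (SELE), VCAM1 and ICAM1. Selectins let leukocytes roll, and ICAM1 and VCAM1 then bind integrins on the leukocyte and hold it firmly. Tumour cells can carry some of the same molecules, and MCAM and ALCAM were both studied early on in melanoma.

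The promoters of ICAM1, ICAM4, VCAM1 and SELE are shown because ICAM1 and ICAM4 had higher expression in TNF-treated cells, while VCAM1 and SELE, the other classical TNF targets of endothelium, had almost no reads. Each is the 250 bases before the RefSeq gene start on GRCh38.p14, written 5′ to 3′ on the strand of the gene. RefSeq starts can differ from those of the GENCODE positions given below. The SELE and MCAM windows lie inside the GENCODE spans of these genes, and the ICAM1 window overlaps its span. Capitals mark matches on either strand to GGNNNTTCC or to the NF-kB consensus, which can overlap.
ICAM1, chr19:10270870-10271119, plus strand: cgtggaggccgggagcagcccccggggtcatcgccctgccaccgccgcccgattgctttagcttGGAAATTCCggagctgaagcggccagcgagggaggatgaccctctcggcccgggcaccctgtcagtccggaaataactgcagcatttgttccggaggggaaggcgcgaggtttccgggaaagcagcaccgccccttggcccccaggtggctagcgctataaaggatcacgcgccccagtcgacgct
ICAM4, chr19:10286705-10286954, plus strand: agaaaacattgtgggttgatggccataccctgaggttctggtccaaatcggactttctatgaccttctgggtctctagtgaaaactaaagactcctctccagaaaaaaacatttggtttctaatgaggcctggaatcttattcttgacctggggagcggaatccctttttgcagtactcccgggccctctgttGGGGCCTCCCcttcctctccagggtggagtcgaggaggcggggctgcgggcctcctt
VCAM1, chr1:100719492-100719741, plus strand: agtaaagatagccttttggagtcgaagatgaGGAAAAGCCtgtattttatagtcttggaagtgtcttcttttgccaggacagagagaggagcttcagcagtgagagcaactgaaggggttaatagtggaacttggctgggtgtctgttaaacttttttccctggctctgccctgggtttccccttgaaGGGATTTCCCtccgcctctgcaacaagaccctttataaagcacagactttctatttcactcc
SELE, chr1:169734080-169734329, minus strand: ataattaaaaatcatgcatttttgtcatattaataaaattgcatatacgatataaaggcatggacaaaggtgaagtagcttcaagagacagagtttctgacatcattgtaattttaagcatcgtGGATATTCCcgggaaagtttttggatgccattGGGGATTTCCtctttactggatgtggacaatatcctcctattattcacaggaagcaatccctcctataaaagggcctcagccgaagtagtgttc

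The ICAM1 window held 1 match to GGNNNTTCC, GGAAATTCC, from 186 to 178 bases before the gene start, and no match to the NF-kB consensus. VCAM1 and SELE held 2 matches to GGNNNTTCC each and 1 to the consensus, and both carried GGGATTTCC, from 62 to 54 bases before the start in VCAM1 and from 93 to 85 in SELE. ICAM4 had 1 match to the consensus, from 57 to 48 bases before the start, and none to GGNNNTTCC. Over 35116 RefSeq promoters of the same length, 17.1% held GGNNNTTCC, 1.89% held it at 2 or more places, 9.96% held the consensus, 0.413% held GGAAATTCC and 0.327% held GGGATTTCC. These letters were chosen after the promoters had been read and with known sites in mind, which favours their presence here. Promoters were found for 8 of the 10 genes. The windows of ALCAM, MCAM and ICAM5 had no match to either motif, and 1 of 3 ICAM3 starts had 1 match to the consensus. In VCAM1 and SELE the consensus match overlaps the GGGATTTCC match, so the same bases are counted under both motifs. A relation between matches and reads was not tested.

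Of the 7 tested genes, ICAM1, ICAM4, ALCAM and F11R were higher in TNF-treated cells and 0 were lower, at a threshold of 0.05 on the adjusted p of edgeR's quasi-likelihood test (Benjamini-Hochberg, over all tested genes). Over all tested genes, 14.5% were higher and 9.9% were lower by the same rule. With an absolute log2 fold change above 1 as well, 3 of the 7 were higher (ICAM1, ICAM4 and ALCAM) and 0 lower, beside 5.62% and 2.39% of all tested genes. ALCAM, at 1.02, was next to this limit and was under it with upper-quartile factors (0.97), with library totals (0.94) and without any 1 of 4 libraries (NT replicate 1 or 3, TNF replicate 2 or 4; 0.90 to 0.99). ICAM4 passed the filter on low counts only through its TNF libraries and so could only be called higher, which limits each of these counts. ICAM3, ICAM5 and MCAM did not pass the test. In each of the 4 genes that passed, all 4 TNF libraries lay above all 4 NT libraries, which was the case for 15.6% of all tested genes (27.3% in either direction), whereas the groups overlapped for ICAM3, ICAM5 and MCAM. The median log2 fold change was 0.80 over the 7 tested genes and -0.0035 over all tested genes. The first of these medians and the genes whose groups did not overlap include ICAM4, with the same limit.

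**Figure D1:**
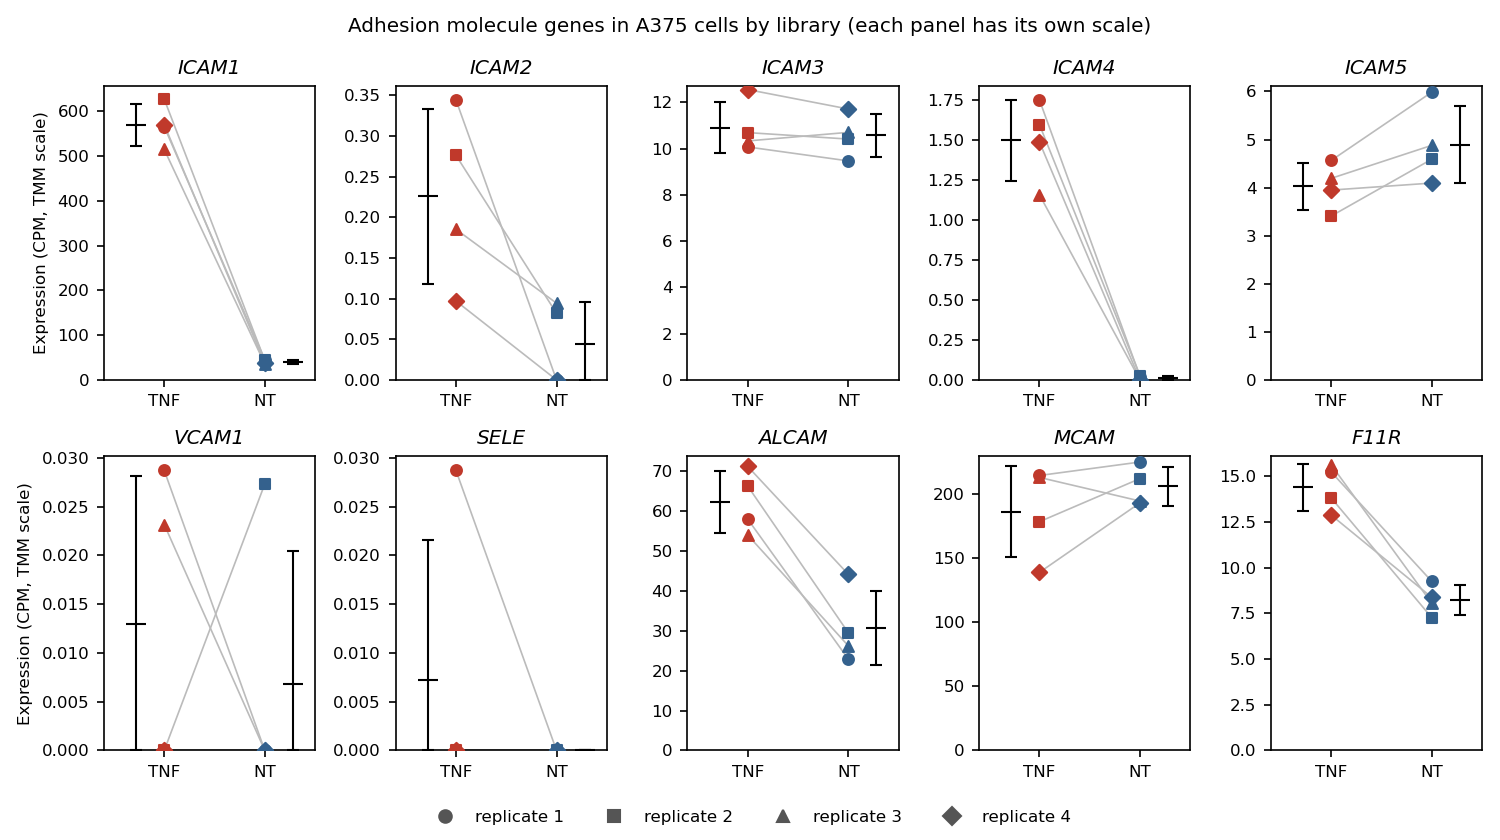
Expression of the 10 adhesion molecule genes in each library, in CPM (counts scaled to library size, TMM scale; each panel has its own axis from 0), with TNF on the left and NT on the right, lines joining libraries of the same experiment, and the mean and SD of 4 libraries beside the points (bars end at 0 where the SD exceeds the mean). The TNF points lie apart from and above the NT points in ICAM1, ICAM4, ALCAM and F11R, and the points overlap in ICAM3, ICAM5 and MCAM.

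ICAM1, the receptor for the leukocyte integrins built from ITGB2 with ITGAL or ITGAM, lies at chr19:10271093-10286615 on the plus strand (GRCh38, GENCODE 44). Its expression in replicates 1 to 4 was 566, 627, 515 and 570 CPM in TNF-treated cells, against 44.8, 43.7, 35.7 and 37.4 CPM in NT cells, where CPM are counts scaled to library size by TMM. The groups lay far apart, and the spread within a group was small (coefficient of variation 8.05% in TNF and 11.2% in NT). ICAM1 averaged 569 ± 45.8 CPM in TNF-treated cells and 40.4 ± 4.53 CPM in NT cells (SD, n = 4 each), a 14.1-fold difference with a 95% confidence interval from 12.0 to 16.5. The log2 fold change was 3.82 (standard error 0.105, adjusted p = 8.37e-09 from edgeR), and the differences within the 4 experiments lay between 3.66 and 3.92. Among the 16186 tested genes its fold change was at position 91 from the top and its p-value at position 3. LIMASI, a lncRNA on the opposite strand, overlaps 14016 bases of ICAM1 but had only 23.1 expected counts over the TNF libraries and 4.62 over the NT libraries.

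The ICAM4 gene, which encodes the Landsteiner-Wiener blood group glycoprotein of red cells, starts 339 bases after the end of ICAM1 on the same strand, at chr19:10286955-10288522. It had 61, 52, 50 and 46 counts in TNF libraries 1 to 4, against 1, 1, 0 and 0 counts in the NT libraries. These are 1.75, 1.60, 1.16 and 1.49 CPM in TNF-treated cells, against 0.0214, 0.0273, 0 and 0 CPM in NT cells. The gene was nearly silent in NT cells and low but present in every TNF library. Summed over libraries, 209 against 2 counts gave a ratio of 108 after scaling, with an exact 95% interval from 29.6 to 900 that covers counting error only. The fitted log2 fold change was 6.46 (standard error 0.474, adjusted p = 5.89e-06 from edgeR), but its size depends on the prior count because the NT counts were at or near 0. In log2 CPM with a prior count of 2, the differences within experiments lay between 4.32 and 4.80. The prior count of the fit itself was not varied. The interval of the ratio lies above that of ICAM1, but the difference between the 2 genes was not tested. In counts, not scaled to length, for every 100 ICAM1 counts there were 0.261 ICAM4 counts in TNF libraries (exact 95% interval 0.227 to 0.299) and 0.0333 in NT libraries (0.00403 to 0.12).

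ICAM4-AS1, annotated on the opposite strand, overlaps all 1568 bases of ICAM4 and 815 bases of ICAM1. It was looked up by its gene ID, after the values of ICAM4 had been seen, because the table lists it under the symbol AC011511.5. It had 257, 439, 287 and 221 expected counts in TNF libraries 1 to 4, against 13.1, 7.05, 11.1 and 11.5 in the NT libraries. All TNF libraries were above all NT libraries, and the sum over the TNF libraries, 1204, was larger than the 210 of ICAM4 itself, in counts not scaled to length. The log2 fold change of ICAM4-AS1 was 4.89 (standard error 0.313, adjusted p = 1.91e-06 from edgeR). Like ICAM4, it passed the filter on low counts only through its TNF libraries and could only be called higher. The library kit marks strand, but the strand setting of the counting is not given in the sources used here, so reads of ICAM4, of its antisense partner and of the end of ICAM1 cannot be told apart with certainty. ICAM4 and ICAM4-AS1 are therefore both uncertain as separate genes, and the share of their counts that came from ICAM1 was not tested.

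ICAM5, or telencephalin, a neuronal ICAM, follows ICAM4 after 1429 bases, at chr19:10289952-10296778. Its expression was 4.56, 3.41, 4.19 and 3.95 CPM in TNF libraries 1 to 4, against 5.98, 4.59, 4.88 and 4.09 CPM in NT libraries. The TNF library was the lower one in all 4 experiments, but the 2 groups overlapped. The log2 fold change was -0.28 (95% confidence interval -0.64 to 0.08, adjusted p = 0.251 from edgeR), which allows a fall to 0.643 of the NT level or a slightly higher level, at most 1.05-fold. With the experiment entered as a block the adjusted p was 0.0937. Thus, in the run of ICAM1, ICAM4 and ICAM5 on the same strand, ICAM1 rose with TNF, the counts assigned to ICAM4 were higher with the uncertainty given above, and ICAM5 did not pass the test.

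ICAM3, an ICAM of resting leukocytes that also binds CD209 on dendritic cells, lies farther along the chromosome on the minus strand, at chr19:10333776-10339661. It was expressed at 10.1, 10.7, 10.3 and 12.5 CPM in TNF libraries 1 to 4 and at 9.47, 10.4, 10.7 and 11.7 CPM in NT libraries. Replicate 4 was the highest library of both groups, and the TNF library was higher in 3 of 4 experiments, by at most 0.10 on the log2 scale. The log2 fold change was 0.05 (95% confidence interval -0.20 to 0.29, adjusted p = 0.819 from edgeR), and its sign changed with the scaling, so no direction can be given. A lncRNA on the opposite strand overlaps 2473 bases of ICAM3 and had similar counts, 1553 over the TNF libraries and 1705 over the NT libraries, so the caution on strand applies to ICAM3 as well.

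Around the cluster, leaving out ICAM4-AS1, 10 tested neighbours had a median log2 fold change of 0.05, with 2 higher and 1 lower. Over all tested genes, the median was -0.0035, with 14.5% higher and 9.9% lower. S1PR2, a sphingosine 1-phosphate receptor, was expressed at 52.5 ± 3.96 CPM in TNF-treated cells and at 38.2 ± 4.29 CPM in NT cells (SD, n = 4 each; log2 fold change 0.46, adjusted p = 0.00481 from edgeR). PDE4A, a cAMP phosphodiesterase, and RAVER1, an RNA-binding protein, had log2 fold changes of 0.27 and -0.20 with adjusted p-values of 0.0483 and 0.0497 (edgeR), both next to the threshold. TYK2, DNMT1, KEAP1 and the other 4 tested neighbours did not pass the test, with log2 fold changes between -0.20 and 0.28. The counts assigned to ICAM4-AS1, which overlaps ICAM4 and the end of ICAM1, had a larger log2 fold change (4.89) than ICAM1. With the uncertainty on strand given above, it cannot be read as a separate gene, and the 10 neighbours do not describe it. No difference between genes was tested.

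**Figure D2:**
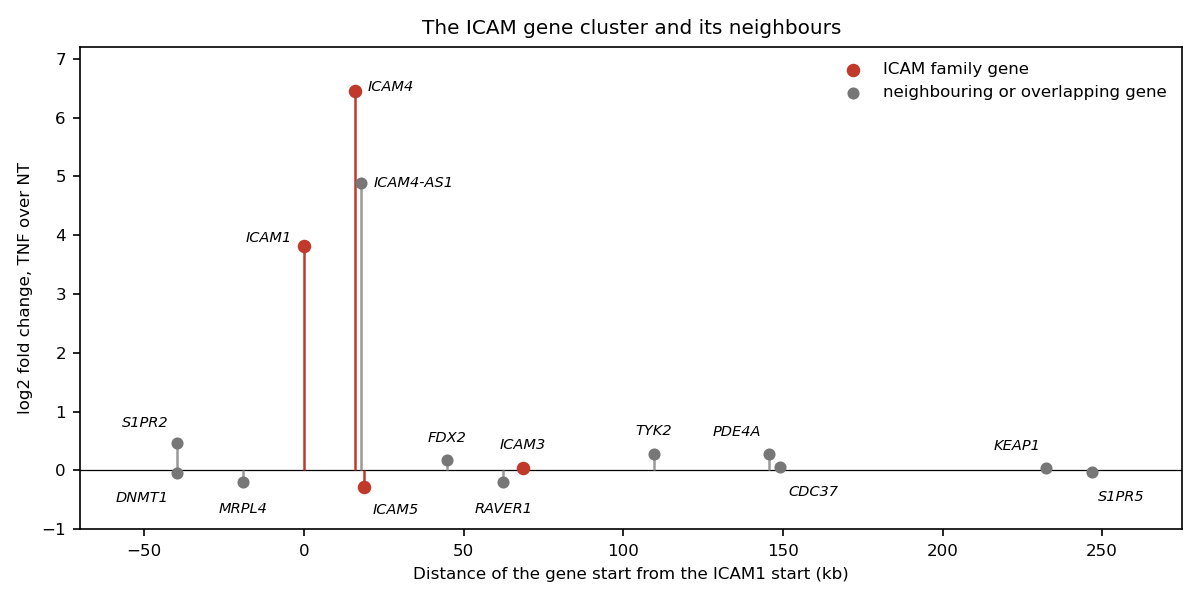
Log2 fold change (TNF over NT, vertical axis) of tested genes against the distance of the gene start from the ICAM1 start (kb, horizontal axis), with ICAM family genes in red and neighbouring or overlapping genes in grey. ICAM1 at 3.82, ICAM4 at 6.46 and ICAM4-AS1 at 4.89 stand above the other genes, which lie between -0.28 and 0.46, and the height of ICAM4 depends on the prior count.

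ICAM2, a second ligand of the ITGAL integrin that endothelial cells and platelets carry without stimulation, is at chr17:64002594-64020634 on the minus strand. It had 12.5, 8.83, 8.50 and 3.23 expected counts in TNF libraries 1 to 4, against 0, 3, 3 and 0 in NT libraries. After scaling, every TNF library was above every NT library, but by a narrow margin, with 0.0971 CPM in the lowest TNF library and 0.0944 CPM in the highest NT library. The 32 against 6 rounded counts gave a ratio of 5.53 (exact 95% interval 2.28 to 16.2, counting error only). When no filter on low counts was used, the adjusted p was 0.0564 with edgeR, and it was 0.0697 with DESeq2, so ICAM2 did not pass the test in either. PRR29, on the opposite strand, overlaps 1712 bases of ICAM2 and had 26.0 expected counts over the TNF libraries and 8 over the NT libraries. The caution on strand given above therefore applies to ICAM2 and its ratio as well.

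VCAM1, the ligand of the integrin built from ITGA4 and ITGB1, had 1, 0, 1 and 0 counts in TNF libraries 1 to 4 and 0, 1, 0 and 0 in NT libraries. SELE, which encodes E-selectin, had 1 count in TNF library 1 and 0 in the other 7 libraries. Both genes were thus at or under the floor of 3 counts in each group, which is 0.0212 CPM over the TNF libraries and 0.0205 CPM over the NT libraries, and no fold change is given. At this depth, of 30989787 to 44373296 counts per library, no expression of VCAM1 or SELE beyond single reads was detectable in TNF-treated or NT cells. The same 24 hours of TNF gave ICAM1 79935 counts over the TNF libraries. VCAM1 lies at chr1:100719742-100739045 on the plus strand, and SELE at chr1:169722640-169764705 on the minus strand, where C1orf112 overlaps it on the opposite strand.

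ALCAM, an immunoglobulin superfamily molecule that binds CD6 on T cells and other ALCAM molecules, lies at chr3:105366909-105576900 on the plus strand. It was expressed at 58.0, 66.2, 54.0 and 71.2 CPM in TNF libraries 1 to 4, against 22.9, 29.5, 26.2 and 44.1 CPM in NT libraries. Replicate 4 was the highest library in both groups, and NT replicate 4 stood well above the other NT libraries, although below the lowest TNF library. The means were 62.3 ± 7.79 CPM in TNF-treated cells and 30.7 ± 9.37 CPM in NT cells (SD, n = 4 each), a 2.03-fold difference (95% confidence interval 1.53 to 2.70). The log2 fold change was 1.02 (standard error 0.185, adjusted p = 0.0025 from edgeR). Within experiments it was 1.34, 1.17, 1.04 and 0.69 in replicates 1 to 4, higher with TNF in 4 of 4. Without replicate 4 of both groups, a choice made after seeing the data, it was 1.17 (adjusted p = 3.75e-05 from edgeR).

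F11R, or junctional adhesion molecule A, sits at tight junctions and on leukocytes and is at chr1:160995211-161021343 on the minus strand. It was expressed at 15.2, 13.8, 15.6 and 12.9 CPM in TNF libraries 1 to 4, against 9.25, 7.27, 8.06 and 8.38 CPM in NT libraries. The groups did not overlap, and each experiment gave a higher TNF value. The means of 14.4 ± 1.28 CPM in TNF-treated cells and 8.24 ± 0.822 CPM in NT cells (SD, n = 4 each) differed by 1.75-fold (95% confidence interval 1.47 to 2.07; log2 fold change 0.80, standard error 0.112, adjusted p = 0.000416 from edgeR). A readthrough gene annotated over 23387 bases of F11R on the same strand had 53.8 expected counts in TNF replicate 1, 4.18 in NT replicate 1 and 0 in the other libraries, so this gene took counts in 1 experiment only. With TNF replicate 1 left out, F11R still differed by 0.77 on the log2 scale (adjusted p = 0.00195 from edgeR).

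MCAM, an adhesion molecule of melanoma and of vessel walls, is at chr11:119308529-119321521 on the minus strand. It was expressed at 214, 178, 213 and 139 CPM in TNF libraries 1 to 4, against 225, 212, 194 and 193 CPM in NT libraries. The groups overlapped, TNF replicate 4 was the lowest of all 8 libraries, and MCAM was lower with TNF in 3 of 4 experiments. The log2 fold change was -0.15 (95% confidence interval -0.43 to 0.14, adjusted p = 0.467 from edgeR), so the data allow a fall to 0.742 of the NT level or a level 1.10-fold higher. Without TNF replicate 4 it was -0.03 (adjusted p = 0.842 from edgeR). CBL, on the opposite strand, overlaps 5398 bases of MCAM and differed by 0.11 on the log2 scale (edgeR adjusted p = 0.536).

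**Figure D3:**
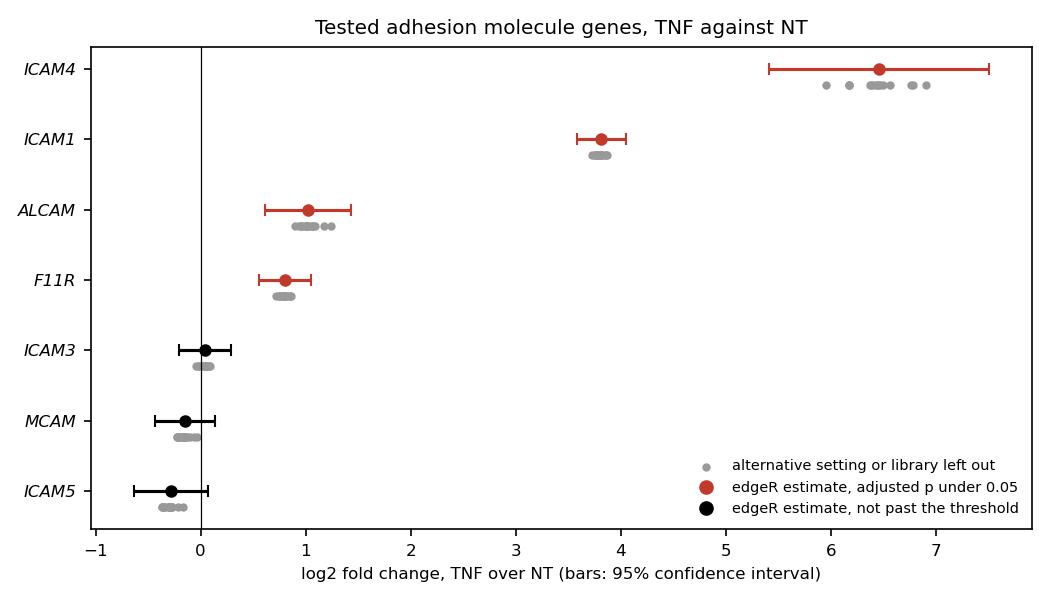
Log2 fold change (TNF over NT, horizontal axis) of the 7 tested adhesion molecule genes, with the 95% confidence interval from edgeR as bars and the values under alternative settings or with a library left out as grey points. ICAM4, ICAM1, ALCAM and F11R keep clear of 0 under every setting run, and the grey points of ICAM3 lie on both sides of 0.

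The makeup of the group of genes differed between treatments, here in CPM not scaled to length. ICAM1 gave 63.3 to 70.3% of the summed CPM of the 10 genes in TNF libraries and 12.5 to 14.2% in NT libraries. MCAM gave 17.1 to 26.2% in TNF libraries and 64.6 to 70.9% in NT libraries, so the leading gene of the group was ICAM1 in TNF-treated cells and MCAM in NT cells. The sum over the 10 genes was 811 to 901 CPM in TNF libraries and 280 to 317 CPM in NT libraries.

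To compare levels between genes, CPM were divided by the length of the canonical transcript. In TNF-treated cells the order was ICAM1 (192 ± 15.4 CPM per kilobase), MCAM (55.9 ± 10.7), ALCAM (13.3 ± 1.66), ICAM3 (6.29 ± 0.647), F11R (3.10 ± 0.274), ICAM5 (1.33 ± 0.16), ICAM4 (1.16 ± 0.195) and ICAM2 (0.199 ± 0.0949; SD, n = 4 each), with VCAM1 and SELE last. The libraries of ICAM5 and ICAM4 overlapped, so these neighbours did not differ beyond their spread, and the other neighbours down to ICAM2 were separate. In NT cells the order was MCAM (61.9 ± 4.56 CPM per kilobase), ICAM1 (13.6 ± 1.52), ALCAM (6.53 ± 1.99), ICAM3 (6.09 ± 0.532), F11R (1.78 ± 0.177) and ICAM5 (1.61 ± 0.264; SD, n = 4 each). There, ALCAM overlapped with ICAM3 and F11R with ICAM5. ICAM2 and ICAM4 followed near 0.

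**Figure D4:**
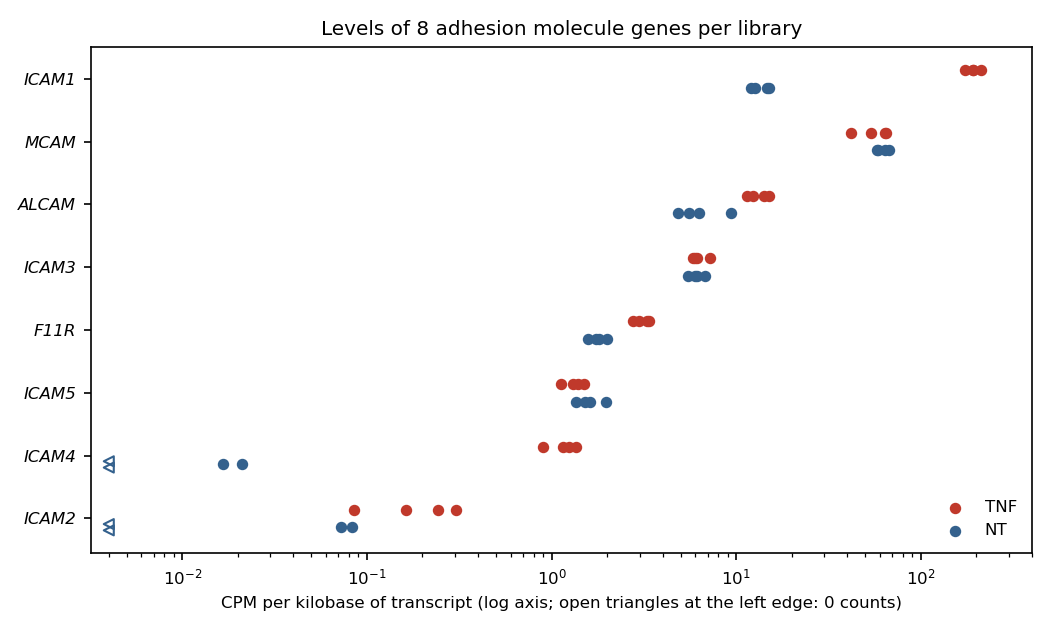
Level of 8 adhesion molecule genes in each library, in CPM per kilobase of canonical transcript on a log axis, with TNF points above NT points for each gene and open triangles for libraries with 0 counts. ICAM1 is the top gene in TNF-treated cells at 173 to 211 CPM per kilobase, and MCAM is above it in NT cells at 58.0 to 67.5 against 12.0 to 15.1.

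The integrins and other counter-receptors of these molecules were looked at in the same libraries. Of 15 listed genes, 10 were tested, of which 1 rose, 3 fell and 6 stayed above the threshold, with a median log2 fold change of 0.25. For this list and those that follow, 14.5% of all tested genes were higher and 9.9% lower, with a median of -0.0035. ITGA9, an integrin chain that binds VCAM1, fell to 5.89 ± 0.74 CPM in TNF-treated cells, against 34.0 ± 9.80 CPM in NT cells (SD, n = 4 each; log2 fold change -2.53, adjusted p = 1.01e-05 from edgeR). ITGA4, another VCAM1-binding chain, was at 29.8 ± 2.96 CPM in TNF-treated cells and 48.5 ± 2.26 CPM in NT cells (-0.70 on the log2 scale, adjusted p = 0.000156 from edgeR). LAMA4, a laminin chain that MCAM binds, fell by 0.85 on the log2 scale (edgeR adjusted p = 0.00282). CD44, a ligand of E-selectin, was the one that rose, at 1050 ± 28.3 CPM in TNF-treated cells and 636 ± 15.9 CPM in NT cells (log2 fold change 0.72, adjusted p = 1.65e-05 from edgeR). The ICAM1-binding chains were low: ITGB2 averaged 2.31 CPM in TNF-treated cells and 1.55 CPM in NT cells and did not pass the test, and ITGAL had 8 counts in all TNF libraries and 2 in all NT libraries. ITGAM, named here after its values were seen, had 69 counts in the TNF libraries and 2 in the NT libraries and was below the filter.

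Among 15 tested genes for other adhesion and transmigration molecules of leukocyte traffic, 6 rose, 1 fell and 8 stayed above the threshold, with a median log2 fold change of 0.46. The shares over all tested genes were 14.5% higher and 9.9% lower. PECAM1 and JAM2 passed the filter on low counts only through their TNF libraries. Both could only be called higher, which limits these counts and the median. NCAM1, a neural adhesion molecule, had a log2 fold change of 2.89 and PECAM1, an adhesion molecule of endothelial junctions and platelets, of 2.84 (edgeR adjusted p = 8.27e-06 and 6.9e-05). NCAM1 was at 12.5 ± 3.74 CPM in TNF-treated cells and 1.68 ± 0.191 CPM in NT cells, and PECAM1 at 2.30 ± 0.56 CPM in TNF-treated cells and 0.312 ± 0.114 CPM in NT cells (SD, n = 4 each). JAM2, a relative of F11R, had a log2 fold change of 2.25 and CD47, the ligand of SIRPA, of 0.90 (edgeR adjusted p = 0.00146 and 0.0013). SELP, the P-selectin gene, had 0 counts in all 8 libraries.

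Of 16 cytoplasmic and membrane partners of ICAM1 and VCAM1, all tested, 5 rose, 2 fell and 9 stayed above the threshold (median log2 fold change 0.09). CD9, a tetraspanin that gathers ICAM1 and VCAM1 in endothelial platforms, had a log2 fold change of 1.04, TRIO, a guanine nucleotide exchange factor, of 1.01, and MSN, the actin linker moesin, of 0.81 (edgeR adjusted p = 5.77e-05, 1.15e-05 and 5.02e-05). ARHGEF26, an exchange factor for RHOG that binds the ICAM1 tail, fell by 0.92 on the log2 scale (adjusted p = 0.000448 from edgeR). Of 14 tested junction partners of F11R, 4 were higher, 1 was lower and 9 did not pass (median 0.08). Beside both of these lists, 14.5% of all tested genes were higher and 9.9% lower. CLDN1, a tight junction claudin, rose by 1.53 on the log2 scale, PARD6A, a polarity protein, by 0.97 and AFDN, or afadin, which binds F11R, by 0.67 (edgeR adjusted p = 0.00037, 0.00498 and 0.000592).

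Proteases that can cut adhesion molecules from the cell surface, some of them secreted, and their inhibitors had 6 higher, 1 lower and 3 that did not pass among 10 tested genes (median log2 fold change 0.60). The shares of all tested genes were again 14.5% higher and 9.9% lower. MMP9, a gelatinase, averaged 2653 ± 1063 CPM in TNF-treated cells and 2.72 ± 2.43 CPM in NT cells (SD, n = 4 each; log2 fold change 9.97, adjusted p = 3.24e-05 from edgeR). MMP14 rose by 1.70, ADAM8 by 1.93 and MMP3 by 1.75 on the log2 scale (edgeR adjusted p = 3.14e-06, 0.000551 and 0.0208), with ADAM8 and MMP3 near 1 CPM in TNF-treated cells. ADAM8 and MMP3 passed the filter on low counts only through their TNF libraries. Both could only be called higher, which limits the counts and the median of this list. ADAM17, which sheds several of these molecules including ICAM1 and VCAM1 in other cells, had a log2 fold change of 0.29 and did not pass the test (adjusted p = 0.0773 from edgeR). The inhibitor TIMP2 was among the 6 higher genes (log2 fold change 0.38, adjusted p = 0.00726 from edgeR). The lower gene was TIMP3, also an inhibitor (log2 fold change -0.83, adjusted p = 0.0012 from edgeR). As a reference for the response, 11 of 13 TNF receptor and NF-kB genes were higher and 1, TNFRSF1B, was lower with an adjusted p next to the threshold (0.0498 from edgeR), with a median log2 fold change of 2.73. CXCL8, a neutrophil chemokine, had a log2 fold change of 7.90, BIRC3, an apoptosis inhibitor, of 7.21, CCL2, a monocyte chemokine, of 6.94 and TNFAIP3, an NF-kB inhibitor, of 3.57. ICAM1, at 3.82, lay between CCL2 and TNFAIP3.

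**Figure D5:**
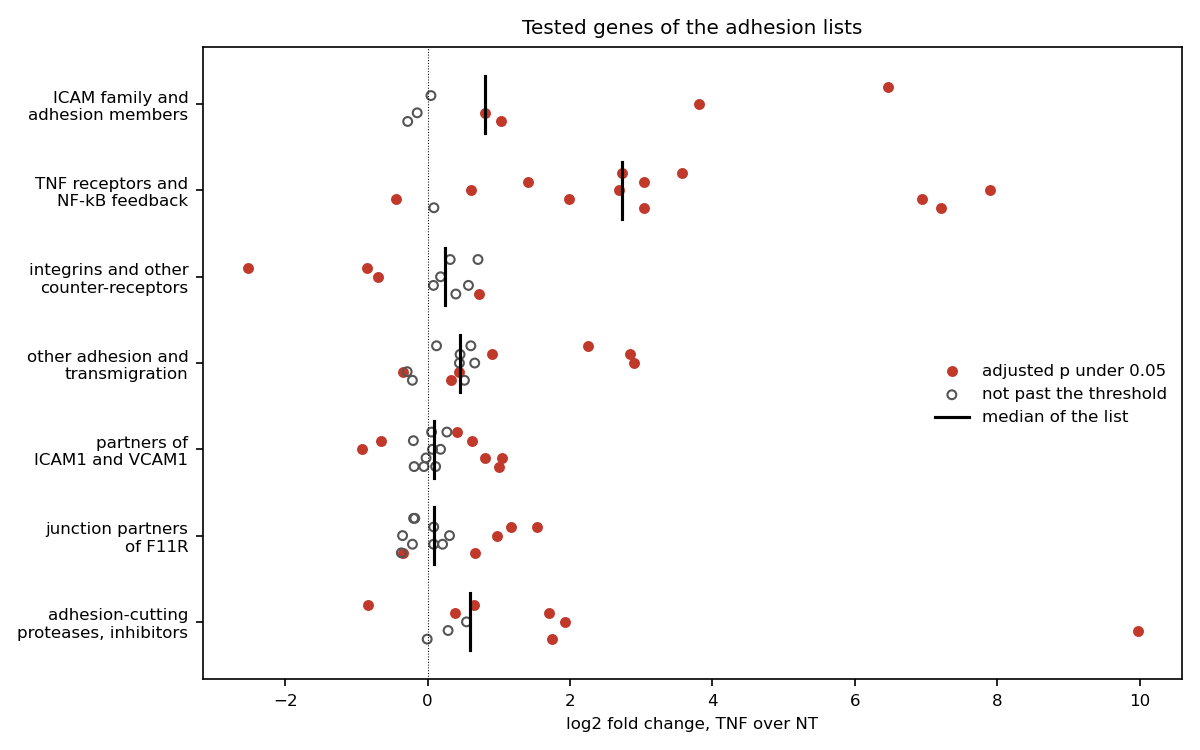
Log2 fold change (TNF over NT, horizontal axis) of the tested genes of 7 gene lists (rows), with genes past an adjusted p of 0.05 as filled points, the others as open points, and the median of each list as a black bar. The median is 0.80 for the adhesion molecules of the top row, 2.73 for the TNF receptor and NF-kB genes, and between 0.08 and 0.60 for the other lists.

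The genes whose log2 CPM were most like those of ICAM1 over the 8 libraries, among 12361 genes searched, were ZP4, CTSS, SOD2, SNX9 and ECE1, with Pearson correlations of 0.999, 0.999, 0.997, 0.996 and 0.996. This is a description, since all 5 share with ICAM1 the difference between 4 TNF and 4 NT libraries. Their sizes differed widely, with log2 fold changes of 9.24 for ZP4, 8.10 for CTSS, 2.27 for SOD2, 1.39 for SNX9 and 1.47 for ECE1.

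The cells were checked against marker genes. SOX10, a transcription factor of the melanocyte lineage, was at 1177 ± 86.2 CPM in TNF-treated cells and 1025 ± 53.9 CPM in NT cells, and MITF was at 22.0 ± 2.44 CPM in TNF-treated cells and 21.0 ± 1.24 CPM in NT cells (SD, n = 4 each), whereas PMEL and MLANA were under 0.5 CPM in both groups and TYR had 1 count in all. Of 7 tested melanoma lineage markers, 1 (MIA) was higher and 1 (S100B, with a log2 fold change of -2.50) was lower. For all the marker lists, the shares over all tested genes were 14.5% higher and 9.9% lower. Of 9 leukocyte markers, 1 of 3 tested was higher, with a summed level of 22.0 to 26.0 CPM in TNF libraries and 16.6 to 21.3 CPM in NT libraries. PTPRC, the pan-leukocyte marker, had 2 counts in the TNF libraries and 1 in the NT libraries, and CD53 had 0. The marker that was higher was LCP2, at 3.25 ± 0.578 CPM in TNF-treated cells and 0.84 ± 0.37 CPM in NT cells (SD, n = 4 each; 1.96 on the log2 scale, edgeR adjusted p = 0.00051). CORO1A and ITGB2 stayed above the threshold, with log2 fold changes of 0.12 and 0.57. CORO1A gave most of the summed level, with means of 17.5 CPM in TNF-treated cells and 16.1 CPM in NT cells. Below the filter, LST1 had 15 counts in the TNF libraries and 1 in the NT libraries. CD3E, CD79A and CD14, also below it, had 2, 5 and 24 counts in TNF libraries and 5, 10 and 24 in NT libraries. Of 9 endothelial markers, 4 of 5 tested were higher (PECAM1, KDR, TEK and TIE1), with a summed level of 17.1 to 20.6 CPM in TNF libraries and 7.27 to 13.2 CPM in NT libraries. The part of these markers in the results above was not tested. PECAM1 and TEK passed the filter on low counts only through their TNF libraries and could only be called higher, which limits this count. Of the other endothelial markers, VWF (log2 fold change -1.55, adjusted p = 0.0514 from edgeR) did not pass the test. VWF passed the filter only through its NT libraries and could only be called lower. The filter left out CDH5, CLDN5, EMCN and ERG. They had 15, 22, 1 and 2 counts over the TNF libraries and 25, 28, 5 and 1 over the NT libraries. Of 7 fibroblast markers, 1 of 4 tested (DCN) was higher, and their summed levels overlapped between groups (12.5 to 22.0 CPM in TNF and 11.7 to 21.9 CPM in NT). LUM, COL1A1 and PDGFRB did not pass the test, with log2 fold changes of -0.79, -0.36 and 0.11. Below the filter, COL1A2, COL3A1 and POSTN had 2, 3 and 7 counts in TNF libraries and 33, 0 and 3 in NT libraries. In bulk RNA, a different number of cells expressing a gene and a different amount of RNA per cell cannot be told apart.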

How the data were processed

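RNA of A375 cells, NT or treated with TNF, was sequenced in 8 libraries, 4 per group. The authors aligned reads to the GRCh38 transcriptome with bowtie2 (version not given in the sources used here) and estimated counts with RSEM 1.2.25. The deposited values are expected counts per gene, not normalized. Treatment came from the sample labels, and replicates 1 to 4 follow the experiment dates in the sample titles. For the NT samples, the name of the single-sample file carries the date of another NT sample, so values were read from the series-wide table, where column names and titles match, and only the pairing depends on this. The single-sample files were not used.

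Rounding the expected counts to integers moved their total by 0.000138%. Libraries held 30989787 to 44373296 counts, and 28855 of 60710 genes had 0 counts throughout. No 2 libraries within a group agreed within sampling noise (chi-square per degree of freedom at least 12.2). Genes were kept by edgeR's filter (minimum count 10, total 15) and scaled by TMM. The main test was the robust quasi-likelihood test of edgeR 4.0.16 with treatment as its term, Benjamini-Hochberg adjustment and a threshold of 0.05. Under R 4.3.3, DESeq2 1.42.0 and limma voom (3.58.1) served as alternatives. Log2 CPM used a prior count of 2. Intervals of count ratios are exact binomial intervals at 95%. Libraries with the same number deviated together from their group means (correlations 0.351, 0.169, 0.238 and 0.46 over 16186 genes), and share a date in the titles. The numbers were therefore taken as pairs, and an alternative fit had the experiment as a block. The procedures were tested on simulated data, where false calls of DESeq2 were above its nominal rate and edgeR recovered a minority of the smallest changes, so DESeq2 is no firmer evidence and a gene that did not pass may have changed a little. The simulated data had far fewer changed genes than were called here, and no pairing of libraries. Rates of recovery and of false calls may therefore differ in these data, for edgeR as well.

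Positions and lengths come from GENCODE 44 (Ensembl 110) on GRCh38, a later annotation than that of the counts, and promoters from RefSeq (GRCh38.p14). The 10 genes and the gene lists were chosen with earlier results of these data known. Named genes are the 10 genes, up to 4 of each list with the largest change past the threshold, the 5 genes most like ICAM1 by Pearson correlation (mean log2 CPM of at least 1), and other listed genes where a sentence on the 10 turns on them. ICAM4-AS1 and other overlapping genes, ranks, shares of the summed CPM and the ICAM4 to ICAM1 ratio were added after values had been seen. Some of the genes named by this rule are not reported here.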

Additional observations from a re-analysis of the deposited data

How the results depend on the processing

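ICAM1, ICAM4, ALCAM and F11R kept their direction and an adjusted p under 0.05 in every alternative that could be run, with log2 fold changes of 3.73 to 3.87, 5.95 to 6.91, 0.90 to 1.24 and 0.72 to 0.86, while ICAM5 (-0.36 to -0.17) and MCAM (-0.23 to -0.03) stayed below 0 without passing the test. ICAM4 had no value when at least 10 counts were required in every library. ICAM3 turned to -0.013 with upper-quartile factors and -0.0388 with library totals, and ran from -0.0263 to 0.0903 when each library was left out (below 0 without NT replicate 1 and without TNF replicate 4); it passed the test in none of these. With each library left out, 1880 to 2521 of all tested genes were higher and 1110 to 1896 lower, and 33 to 41 genes of the related lists were higher and 8 to 11 lower. With the replicate block, 3451 genes were higher and 2946 lower, and 19 related-list genes were lower, against 11 without it; the block changed no call among the 7 tested adhesion molecule genes. The split depended on scaling: upper-quartile factors gave 2045 higher genes and 2196 lower ones, library totals 1925 and 2514, and TMM 2345 and 1603. At an adjusted p under 0.01, 1548 genes were higher and 772 lower, with 7 related-list genes lower, and with an absolute log2 fold change above 1, 909 were higher and 387 lower, with 21 related-list genes higher and 1 lower. The mean log2 CPM of ICAM4 in NT cells was -5.44 with a prior count of 0.5. With the union of exons as the length, levels per kilobase in TNF and NT cells were 165 and 11.7 for ICAM1, 3.91 and 3.79 for ICAM3, 1.02 and 1.24 for ICAM5, 8.68 and 4.28 for ALCAM, and 25.1 and 27.8 for MCAM, and 0.0696 for ICAM2 in TNF cells; ICAM4 then stood above ICAM5 in TNF-treated cells. Of 590 values for 35 named genes outside the 10, 556 kept direction and call, 34 lost the call (PDE4A 13, ERN1 10, RAVER1 8, MMP3 2, CBLB 1) and 0 reversed; the causes were not tested. Depth limits ICAM2, VCAM1, SELE and the NT value of ICAM4, for which intervals cover counting error only.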
